A study of Rattus norvegicus with 100 samples.

Results

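This account follows 8 genes of the first oxidation step of mitochondrial fatty acid breakdown in rat hepatocytes given GW7647. Acadvl, Acadl, Acadm, Acads and Acadsb encode acyl-CoA dehydrogenases, and Etfa, Etfb and Etfdh encode the proteins that carry the electrons away. The genes were listed by name. Each was read from the probe set (a group of short probes for one transcript) that carried its symbol alone and had the highest mean over all arrays, and each of the 8 had exactly 1 such probe set. They are 8 of 13439 genes with a probe set and 8 of the 8843 genes tested, which are those with a log2 intensity above 5 in at least 3 arrays.

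GW7647 is a synthetic activator of PPARα, a nuclear receptor that controls genes of fatty acid use in liver. Primary hepatocytes of 4 biological replicates, labelled Rs627, Rs628, Rs631 and Rs632 and taken here as 1 rat each, were exposed to 0, 0.001, 0.01, 0.1, 1 or 10 µM for 2, 6, 12, 24 or 72 h, and each of the 100 arrays measured the RNA of 1 culture of 1 rat. Each combination of a concentration and a time, 30 in all, has 2 to 4 arrays. In order of time, 0 µM has 3, 4, 3, 3 and 4 arrays and 1 µM has 3, 4, 4, 4 and 4. The same rats gave the arrays at 0 and 1 µM at 6 and 72 h. At 2, 12 and 24 h the rats of these groups differed in part. All cultures, those at 0 µM included, were grown on collagen IV under a Geltrex overlay in William E medium, and whether the 0 µM cultures received the solvent is not given in the sources used here, nor are the strain, sex and age of the rats.

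In each turn of mitochondrial β-oxidation an acyl-CoA dehydrogenase takes electrons from a fatty acid bound to coenzyme A and leaves a double bond. The enzymes differ in the chain they accept: the Acadvl product takes very long chains, that of Acadl long and branched chains, that of Acadm medium chains and that of Acads short chains, while that of Acadsb takes short branched chains, chiefly from the breakdown of isoleucine. All of them hand the electrons to the electron transfer flavoprotein, a dimer of the Etfa and Etfb products, and Etfdh encodes the membrane enzyme that passes them on to ubiquinone of the respiratory chain. PPARα is known to act on several genes of this pathway through a DNA element made of AGGTCA repeated after 1 base.

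The promoters are shown because 7 of the 8 genes rose with the agent, as described further on. RefSeq windows of 300 bases on the rat build GRCr8, from 250 bases before the start of the gene to 50 after it, were found for 7 of the genes, Acadl being the exception. Each was searched on both strands for AGGTCANAGGTCA, counting the bases that differ among its 12 fixed letters, so that copies of AGGTCA within it are not counted again. The best stretch of 4 promoters is given below as read along the strand of the gene, with capitals for bases that equal the motif (Acadvl, Acads) or its reverse complement (Etfa, Etfb):
Acadvl: AGGTCAgtGGTCA
Etfa: TtACCTtTGcCCT
Etfb: TGcCCTtTtcCCT
Acads: AGGTCtgtGccCA

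The stretch of Acadvl differed from the motif at 1 base and lies at chr10:55236710-55236722, beginning 17 bases upstream of the start used by the table. The annotated span of the gene, chr10:55231558-55236786, reaches past that start, so the stretch lies within the span. Of 33469 rat promoter windows of the same length, 0.439% held a stretch with at most 1 difference. The stretch of Etfa (chr8:64788107-64788119) differed at 2 bases (3.77% of windows hold one as close) and that of Etfb (chr1:102988308-102988320) at 3 (24.9%). That of Acads (chr12:47154347-47154359) differed at 4 (80.3%) and was 1 of 2 equally close, and the best of Acadm, Acadsb and Etfdh at 5, which 99.9% of windows reach. These are matches of letters in a short window, not binding sites, and the data hold no binding measurement.

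The promoter of Acadvl, on the minus strand at chr10:55236656-55236955, follows with its best stretch in capitals. That of Acadm, the gene with the largest change here, on the minus strand at chr2:245542815-245543114, follows in lower case throughout, since it has no close stretch.
Acadvl: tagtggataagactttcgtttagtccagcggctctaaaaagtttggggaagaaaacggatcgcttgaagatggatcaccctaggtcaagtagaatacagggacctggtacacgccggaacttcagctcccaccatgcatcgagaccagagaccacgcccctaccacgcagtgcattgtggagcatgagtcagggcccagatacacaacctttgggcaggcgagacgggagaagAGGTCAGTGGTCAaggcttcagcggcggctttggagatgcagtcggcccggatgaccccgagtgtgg
Acadm: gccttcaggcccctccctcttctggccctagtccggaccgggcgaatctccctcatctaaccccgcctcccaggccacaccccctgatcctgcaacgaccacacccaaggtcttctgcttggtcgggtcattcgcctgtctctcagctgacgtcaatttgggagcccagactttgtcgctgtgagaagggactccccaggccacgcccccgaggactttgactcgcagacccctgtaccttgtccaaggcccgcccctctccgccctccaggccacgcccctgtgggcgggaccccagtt

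On GRCr8 the gene spans are chr10:55231558-55236786 (Acadvl), chr9:75783689-75822077 (Acadl), chr2:245518693-245542864 (Acadm), chr12:47154259-47163580 (Acads) and chr1:195619088-195660564 (Acadsb) for the dehydrogenases. Those of the flavoprotein genes are chr8:64731192-64787965 (Etfa), chr1:102988499-103002663 (Etfb) and chr2:167038707-167060758 (Etfdh).

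The 4 straight-chain dehydrogenases, Etfa, Etfb and Etfdh rose with GW7647, and Acadsb did not. At 1 µM and 72 h the rises ran from 1.23-fold for Etfa to 3.82-fold for Acadm. Within the dehydrogenases the order did not follow chain length: Acadm (medium) rose most, Acads (short) and Acadvl (very long) followed, and Acadl (long) rose 1.27-fold. Log2 intensities are used throughout, as deposited, so that a difference of 1 is a doubling of signal. Tests are limma's moderated tests in a single model of the 30 groups, two-sided and with Benjamini-Hochberg adjustment over the 8843 genes of a comparison, and a gene is called at an adjusted p under 0.05. Changes in signal are compared between genes, and levels are not. Probe sets can differ in how steeply signal follows RNA, which would enter a comparison of changes and was not tested. Acadl and Etfa, which rose least of the risen genes, had the highest mean signal over all arrays (11.79 and 11.63). The part of signal level in the order of the changes was not tested.

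**Figure D1:**
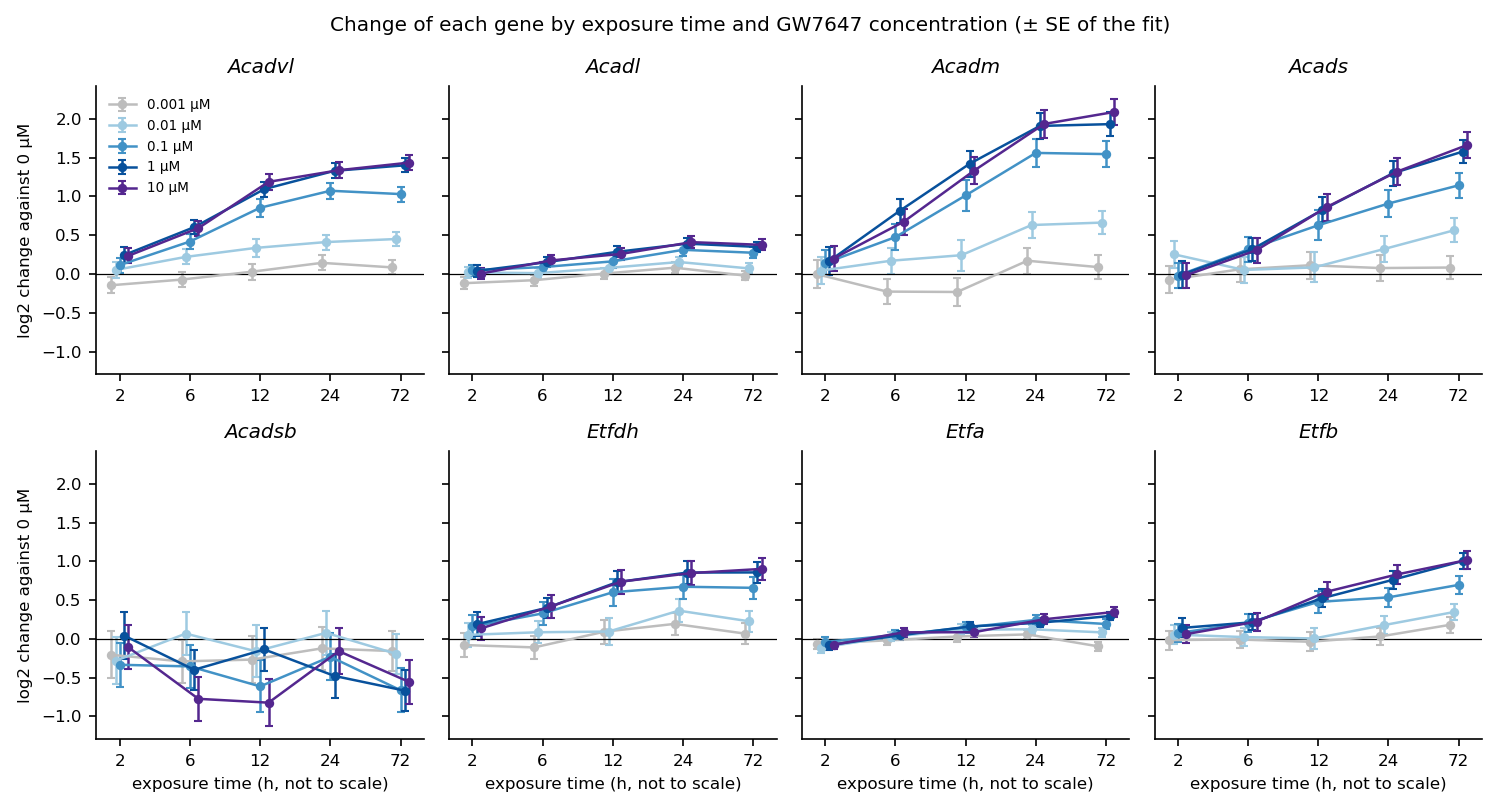
Change in log2 intensity against 0 µM (vertical axis) by exposure time in h (horizontal axis, not to scale) for each of the 8 genes, with 1 line per concentration of GW7647 and bars of ± 1 SE from the fit. Acadsb is the panel without a rise, and in the other 7 the lines for 1 and 10 µM run close together.

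Acadvl, the very-long-chain enzyme of the inner mitochondrial membrane, was at 9.61, 9.52, 9.48 and 9.72 without agent at 72 h (rats Rs627, Rs628, Rs631 and Rs632) and at 11.02, 11.02, 10.84 and 11.06 at 1 µM. The lowest treated array lay above the highest untreated array by more than the range within either group. The change was 1.40 ± 0.09 (log2, SE; 2.64-fold, limma adjusted p = 6.34e-22), and per rat it ran from 1.34 to 1.50. At 6 h the gene had already risen by 0.60 ± 0.09 (adjusted p = 9.39e-07), with 9.83, 10.12, 9.75 and 9.94 at 0 µM against 10.51, 10.68, 10.31 and 10.57 at 1 µM. The groups did not overlap at 6 h either. At 12 and 24 h the changes were 1.09 and 1.33.

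Acadl, for long and branched chains, changed little beside its neighbours in the pathway. Its values at 72 h were 11.69, 11.62, 11.51 and 11.52 at 0 µM and 12.01, 12.02, 11.84 and 11.87 at 1 µM. The groups did not overlap, and the change of 0.35 ± 0.06 passed the test (1.27-fold, adjusted p = 1.10e-05). At 6 h the change of 0.15 ± 0.06 did not pass (adjusted p = 0.405), although it passed with the rat as a replicate block (adjusted p = 0.0194). The change at 12 h was 0.29 ± 0.07 (adjusted p = 0.00349), and without rat Rs631 it was 0.24 with an adjusted p of 0.0555.

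Acadm, the medium-chain enzyme and a classical target gene of PPARα, had the largest change of the 8. At 72 h the arrays read 10.35, 10.16, 10.15 and 10.12 at 0 µM and 12.23, 12.24, 11.81 and 12.23 at 1 µM. Every treated array stood well clear of the untreated ones, with that of rat Rs631 the lowest of the treated. The change was 1.93 ± 0.15 (3.82-fold, adjusted p = 1.85e-17). At 6 h it was 0.81 ± 0.15 (adjusted p = 1.60e-04), from 10.48, 10.63, 9.96 and 10.10 to 11.30, 11.29, 10.77 and 11.07. Here the spread between rats was nearly as wide as the change: each rat rose, by 0.66 to 0.97, but the untreated arrays of Rs627 and Rs628 lay close under the treated array of Rs631. The change reached 1.42 at 12 h and 1.91 at 24 h.

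Acads, the short-chain enzyme, first passed the test at 12 h. At 6 h its values were 8.68, 8.36, 8.17 and 8.35 at 0 µM and 8.93, 8.54, 8.54 and 8.83 at 1 µM. All 4 rats were higher with agent, but the groups overlapped, and the change of 0.32 ± 0.15 did not pass the test (adjusted p = 0.545). At 72 h the arrays read 8.40, 7.96, 8.11 and 8.20 without agent and 10.01, 9.65, 9.53 and 9.81 with it. The change there was 1.58 ± 0.15 (2.99-fold, adjusted p = 5.20e-14), larger in value than that of Acadvl. At 12 and 24 h the gene had risen by 0.83 and 1.30.

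Acadsb was near the floor of the array, a log2 intensity of 5 below which values were not taken as measured, and 65 of its 100 arrays lay above it. The other 7 genes were above the floor in 100 of 100. At 72 h the arrays read 5.38, 5.64, 5.83 and 5.51 at 0 µM and 5.05, 4.83, 5.45 and 4.35 at 1 µM. All 4 rats were lower with agent, by 0.33 to 1.16, while the groups overlapped and 2 of the 4 treated arrays fell under the floor. The change of -0.67 ± 0.26 passed narrowly (adjusted p = 0.0468; 15.5% of all genes fell in that comparison), and with values under 5 set to 5 the gene was at least 1.38-fold lower. The call was lost without Rs627, Rs628 or Rs632 (adjusted p = 0.0596, 0.137 and 0.269). It did not pass at 10 µM and 72 h (-0.56 ± 0.28, adjusted p = 0.138) or at the 4 earlier times at 1 µM. In RNA from whole cultures, fewer cells of a type and less RNA per cell cannot be told apart.

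Etfa and Etfb, whose products form the dimer in equal parts, did not change equally in signal. At 72 h Etfa read 11.51, 11.32, 11.43 and 11.35 at 0 µM and 11.77, 11.71, 11.65 and 11.65 at 1 µM, a shift that was small but left no overlap. Its change was 0.29 ± 0.06 (1.23-fold, adjusted p = 2.41e-05). Etfb read 10.34, 10.05, 10.53 and 10.54 without agent and 11.45, 11.20, 11.37 and 11.47 with it. Rat Rs628 was the lowest in both groups, and the groups were well apart. Its change was 1.00 ± 0.11 (2.01-fold, adjusted p = 2.93e-12).

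Neither subunit passed at 6 h. There the change of Etfb was 0.21 ± 0.11 (adjusted p = 0.616) and that of Etfa 0.04 ± 0.06 (adjusted p = 0.992). Etfb had risen by 0.52 ± 0.11 at 12 h (adjusted p = 9.42e-04), a call that was lost without Rs627 (adjusted p = 0.186). Etfa at 12 h did not pass (0.16 ± 0.06, adjusted p = 0.132), except in the fit with rats as blocks (adjusted p = 0.0138). At 24 h its change of 0.21 ± 0.06 passed (adjusted p = 0.00743), but not without Rs631 (adjusted p = 0.109).

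Etfdh, the acceptor of electrons from the flavoprotein, rose from 10.56, 10.33, 10.25 and 10.59 at 0 µM and 72 h to 11.37, 11.30, 11.13 and 11.35 at 1 µM. No treated array came down to the untreated ones, and the change was 0.86 ± 0.13 (1.81-fold, adjusted p = 3.65e-07). At 6 h all 4 rats were higher, by 0.28 to 0.52, but the change of 0.40 ± 0.13 did not pass without regard to the rat (adjusted p = 0.146). In the fit with rats as blocks it did (adjusted p = 3.34e-05), as it did without Rs631 (adjusted p = 0.0409). At 12 and 24 h the gene had risen by 0.73 and 0.86.

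By time at 1 µM, 0 of 8 genes rose at 2 h (1 of 8 at an unadjusted p under 0.05), where 0.351% of all tested genes did. At 6 h 2 rose, Acadvl and Acadm, beside 1.73% of all genes. The rat as a block raised this to 4, with Acadl and Etfdh, and the background to 2.95%. At 12 h 6 rose (3.96% of all genes), all but Acadsb and Etfa, and at 24 and 72 h 7 rose, beside 7.06% and 11.3%. The median change of the 8 genes was 0.27, 0.63, 0.81 and 0.93 at 6, 12, 24 and 72 h, while that of all tested genes was -0.06, -0.02, -0.23 and -0.06.

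The growth from 2 to 72 h was tested as a difference between changes. The 2 h change compares Rs627, Rs631 and Rs632 at 0 µM with Rs628, Rs631 and Rs632 at 1 µM, so a difference between rats enters it. The growth passed for 7 of 8 genes, where 4.40% of all genes passed upward. It was largest for Acadm (1.77 ± 0.23, adjusted p = 4.31e-08) and Acads (1.59 ± 0.23, adjusted p = 4.12e-07). The rat as a block left these calls unchanged. Without Rs627 4 of the 7 calls remained (Acadvl, Acadm, Acads and Etfb). Without Rs632 Acadl and Etfdh were lost, and without Rs628 Etfdh. Acadl was also lost with quantile normalization (0.26, adjusted p = 0.0812). Between successive times 0 of 8 passed in any step, with 2, 3, 2 and 0 at an unadjusted p under 0.05. Of all genes 0.00%, 0.0113%, 0.00% and 0.0113% passed upward in those steps. With the rat as a block, Acadvl passed from 6 to 12 h (adjusted p = 0.0296; 0.271% of all genes).

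**Figure D2:**
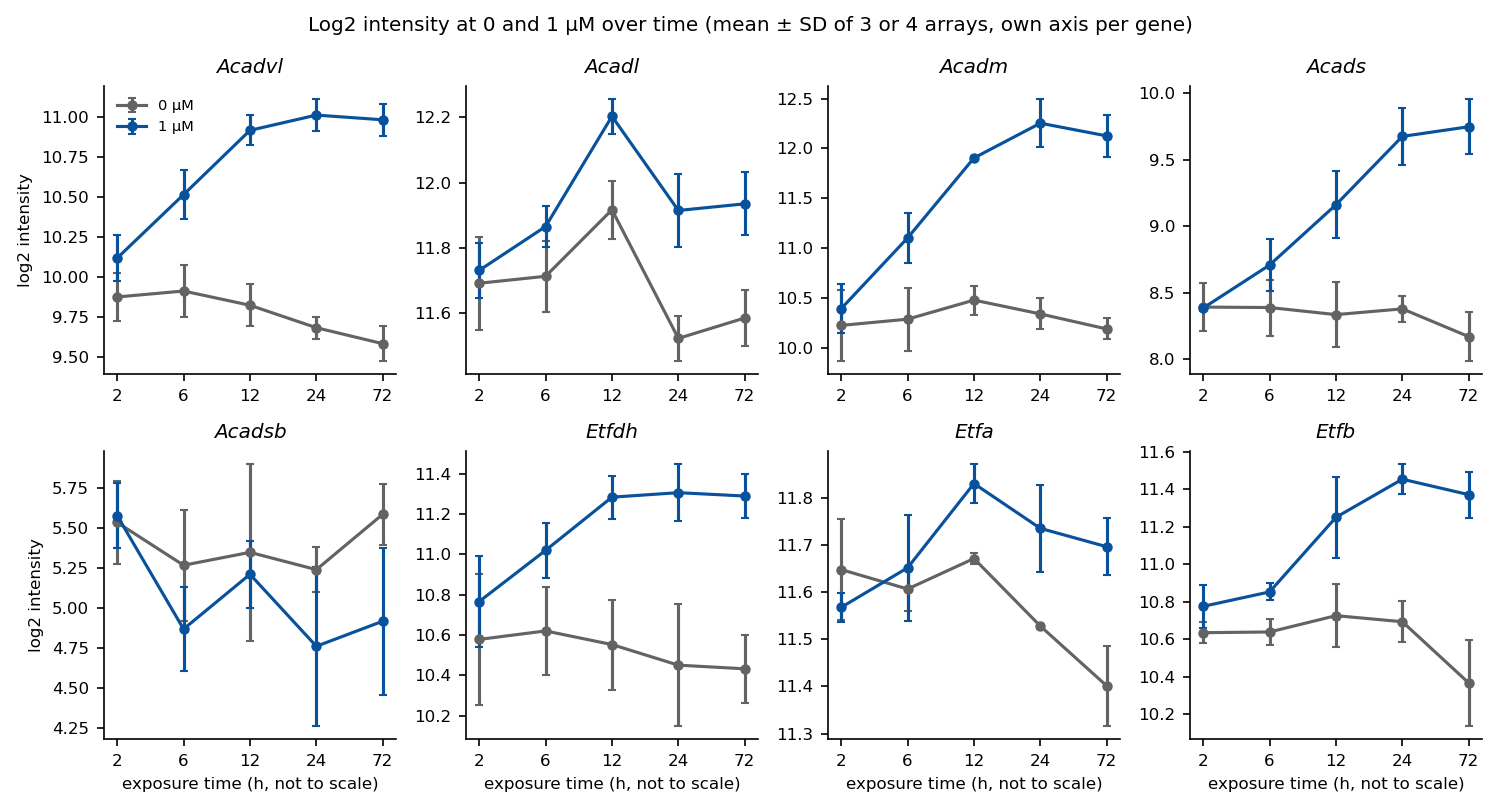
Log2 intensity (vertical axis, own range in each panel) at 0 µM (grey) and 1 µM (blue) against exposure time in h (horizontal axis, not to scale), as mean ± SD of 3 or 4 arrays. The mean of Acadl was highest at 12 h in both groups, and that of Etfa without agent went from 11.65 at 2 h to 11.40 at 72 h.

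How much of its later change a gene had reached at 6 h was computed per rat, a measure chosen after the values were seen, and compared between genes in 21 pairs. In Acadvl it was 43.2% ± 5.28 of the change at 72 h (SD, n = 4 rats), in Acadm 42.4% ± 7.56, in Acadl 44.3% ± 21.1 and in Etfdh 47.4% ± 14.8. In Acads it was 20.5% ± 8.71, in Etfb 21.7% ± 5.50 and in Etfa 15% ± 21.0. The share of Acadvl and that of Acadm exceeded the share of Acads in 4 of 4 rats, by 22.7 and 21.9 percentage points on average, and that of Etfb in 4 of 4 as well. With 4 rats an exact sign-flip test cannot go below p = 0.125, the value found for each of these 4 comparisons. At 24 h Acadvl, Acadl, Acadm and Etfdh stood at 95.2%, 103%, 99.8% and 103% of the change at 72 h, and Acads and Etfb at 84.5% and 84.3% (3 rats).

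**Figure D3:**
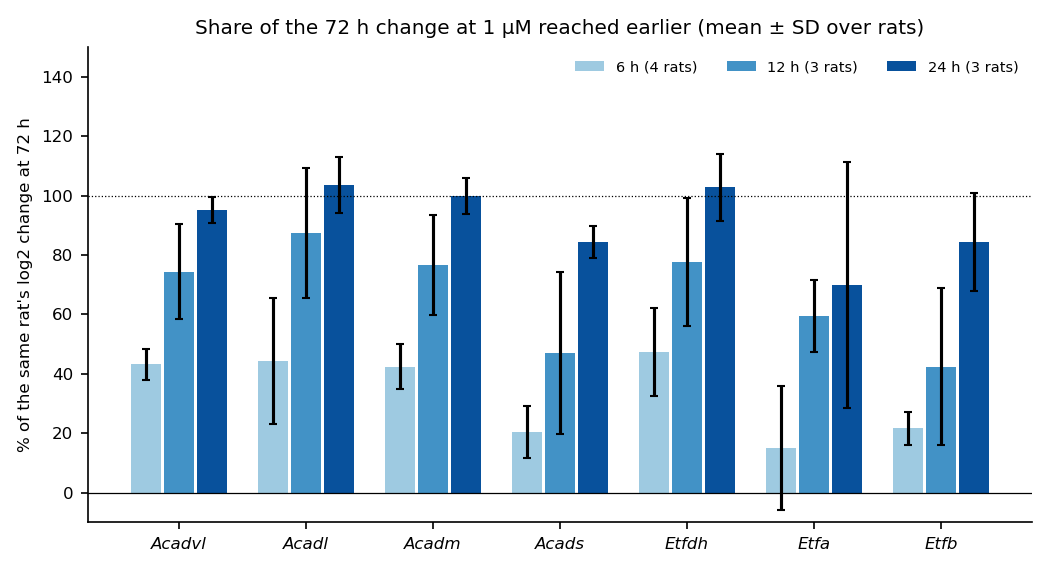
Log2 change at 6, 12 and 24 h as percent of the same rat's change at 72 h (vertical axis), at 1 µM, for 7 genes (horizontal axis; Acadsb, near the floor, is left out). Bars are means and error bars the SD over 4 rats at 6 h and 3 at 12 and 24 h, and at 6 h the bars of Acads, Etfa and Etfb are lower than those of the other 4 genes.

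Whether 2 genes differed in the response of their signal was tested on the difference of log2 values within each array, between 0 and 1 µM. All 28 pairs were tested, with adjustment over the pairs. A difference in how steeply the 2 probe sets follow RNA would enter this test too. Averaged over the 5 times, 26 of 28 pairs differed in a permutation test (100000 resamples of the labels within each time, 36 arrays). At 72 h 25 of 28 did in an exact permutation test of 4 against 4 arrays, whose smallest p is 0.0286. That test moved labels between rats, although the same 4 rats gave both groups. Each of the 25 pairs had this smallest p, and a single such pair would not have passed the adjustment over 28. An exact sign-flip test within the 4 rats cannot go below p = 0.125, so a paired form could not decide any pair at 72 h. Of the 21 pairs without Acadsb, which is near the floor, 19 differed on average and 18 at 72 h. Acadm exceeded each of the other genes in both tests. Over Acads its lead was 0.45 on average (adjusted permutation p = 1.65e-05) and 0.35 at 72 h (adjusted exact p = 0.032), and over Acadvl 0.31 and 0.53 (adjusted permutation p = 8.40e-05 and 0.032).

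Acadvl and Acads, at opposite ends of the chain-length range, were the dehydrogenase pair that did not pass. Averaged over times Acadvl led by 0.13 (adjusted permutation p = 0.0636), and at 72 h Acads led by 0.18, in each of the 4 rats and by 0.06 to 0.27 (adjusted exact p = 0.185). Etfb and Etfdh did not pass either: the difference was 0.08 in favour of Etfdh on average (adjusted permutation p = 0.291) and 0.15 in favour of Etfb at 72 h (adjusted exact p = 0.371). At 72 h Acadl and Etfa also did not pass (0.05, adjusted exact p = 0.326), although they did on average (0.12, adjusted permutation p = 4.38e-04).

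Other contrasts passed. Acadvl exceeded Acadl by 1.05 at 72 h and Acads exceeded it by 1.23, in 4 of 4 rats each (adjusted exact p = 0.032 for both). Etfb exceeded its partner Etfa by 0.71 at 72 h and by 0.40 on average (adjusted exact p = 0.032, adjusted permutation p = 1.65e-05). Etfdh exceeded Etfa by 0.56 at 72 h and fell short of Acadvl by 0.55 (adjusted exact p = 0.032 for both). Swapping labels within rats reduced the averaged pairs to 25, losing Acads against Etfdh (0.20, adjusted permutation p = 0.0829).

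**Figure D4:**
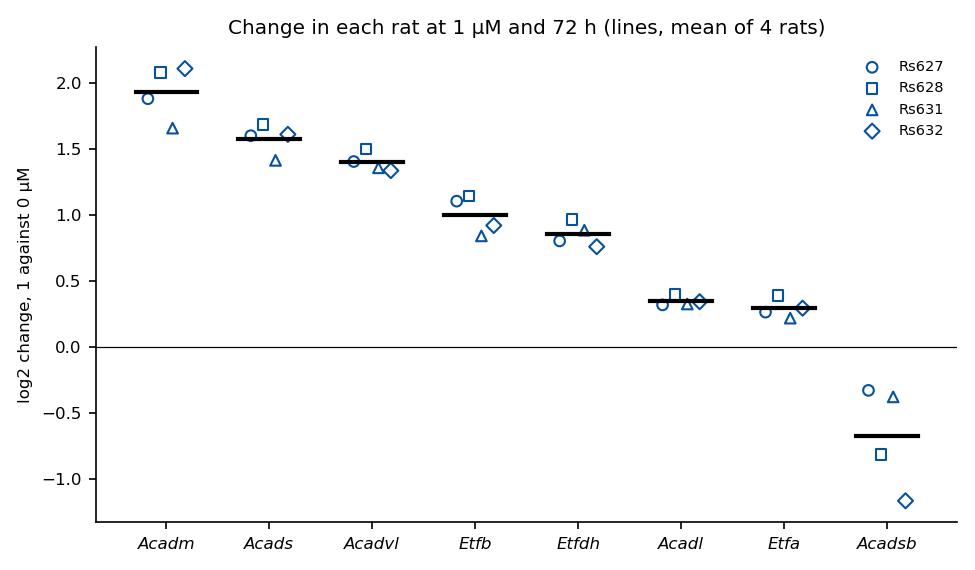
Log2 change of each gene between 0 and 1 µM at 72 h (vertical axis) in each of the 4 rats (symbols), with lines for the mean, genes ordered by that mean (horizontal axis). The ranges of Acadm and Acadvl are separate, and Acadl and Etfa lie together between 0.22 and 0.40.

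At 0.001 µM 0 of 8 genes rose at any time or on average (0 at an unadjusted p under 0.05), and 0.00% of all genes did in each of these 6 comparisons. At 0.01 µM Acadvl and Acadm passed first. At 72 h Acadvl read 10.06, 9.91, 10.05 and 10.10 and Acadm 11.09, 10.82, 10.59 and 10.92, in every rat above that rat's untreated array. Their changes of 0.45 ± 0.09 (adjusted p = 0.00262) and 0.66 ± 0.15 (adjusted p = 0.0203) passed, 2 of 8 genes beside 0.396% of all. That of Acads, 0.57 ± 0.15, did not (adjusted p = 0.0695). With the rat as a block Acads and Etfb passed too, which made 4 of 8 beside 1.30%. Without Rs627 or Rs632 0 of 8 passed there, and without Rs628 Etfb passed in place of Acadm.

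Earlier at 0.01 µM 0 of 8 rose at 2, 6 and 12 h (0, 1 and 1 at an unadjusted p under 0.05), and 0.0113%, 0.00% and 0.0339% of all genes did. At 24 h Acadvl alone passed (0.41 ± 0.10; 0.136% of all genes), with an adjusted p of 0.0499997 just under the threshold, and the call was lost whichever rat was left out. With the block Acadm and Etfdh joined it, 3 of 8 beside 0.407%. Averaged over times 2 of 8 rose (0.656% of all genes), Acadvl by 0.29 ± 0.05 (adjusted p = 5.86e-06) and Acadm by 0.35 ± 0.08 (adjusted p = 0.00484). With the block 5 did, with Acads, Etfdh and Etfb, beside 1.50%. Without Rs631 or Rs632 Acadvl alone passed, and without Rs628 4 genes did (Acadvl, Acadm, Acads and Etfb).

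At 0.1 µM 0 of 8 rose at 2 h (0 at an unadjusted p under 0.05; 0.147% of all genes). Acadvl alone rose at 6 h (0.42 ± 0.10, adjusted p = 0.00807; 0.882% of all genes), not without Rs627 or Rs632. With the block Acadm and Etfdh passed as well, beside 1.59%. At 12 h, with 2 arrays in the group, Acadvl and Acadm rose (1.47% of all genes), and 6 of 8 did with the block (2.93%). Without Rs628 4 rose there, without Rs631 3, and without Rs632 Acadvl alone. Leaving out Rs631 or Rs632 leaves 1 array in that group, which is then assumed to vary like the other groups. At 24 and 72 h 7 of 8 rose, beside 2.96% and 4.0% of all genes, and at 72 h the changes were 1.55 ± 0.17 for Acadm, 1.14 ± 0.16 for Acads and 1.03 ± 0.10 for Acadvl. The call of Etfa was lost at 24 h whichever rat was left out, and without Rs628, Rs631 or Rs632 at 72 h. Without Rs627 4 of 8 rose at 24 h, and without Rs628 4 of 8 at 72 h (Acadvl, Acadm, Acads and Etfb in both). The share of all genes in fits without a rat is not printed, so these losses were not set against a loss among all genes. Without Rs631 Etfb was also lost at 24 h, and without Rs632 Acadl at 72 h.

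At 10 µM the counts were those of 1 µM. None of 8 rose at 2 h (1 at an unadjusted p under 0.05; 0.498% of all genes), 2 at 6 h (1.56%; 4 with the block, beside 2.87%), 6 at 12 h (5.55%), 7 at 24 h (6.43%) and 7 at 72 h (12.5%). Without Rs627 or Rs632 Acadvl alone rose at 6 h, and without Rs631 Etfdh joined. Acadl was lost at 12 h without Rs631 or Rs632, and Etfa at 24 h without Rs632. For Acadsb at 12 h 0 of 3 treated arrays lay above the floor. Its difference did not pass in the primary fit (adjusted p = 0.0798), but passed with the block (adjusted p = 0.0417) and without Rs628. These are tests on values that are not taken as measured, and with values under 5 set to 5 the gene was 1.36-fold lower. Averaged over times, 7 of 8 rose at 0.1, 1 and 10 µM, beside 6.34%, 11.7% and 11.7% of all genes. The average change of Acadsb at these 3 concentrations was -0.44, -0.33 and -0.48 (adjusted p = 0.0152, 0.0309 and 0.00174), so that 1 of 8 passed downward in each, where 7.94%, 23.6% and 27.7% of all genes did. These values rest in part on arrays under the floor: 9 of 15, 10 of 19 and 6 of 16 treated arrays lay above it, and with values under 5 set to 5 the average was 1.23-fold, 1.16-fold and 1.21-fold lower, with no test. That call was lost at 0.1 µM without Rs627 or Rs632, at 1 µM without Rs627, Rs631 or Rs632, with quantile normalization (adjusted p = 0.112) or without repeated plate positions (adjusted p = 0.0719), and at 10 µM without Rs631, as was that of Etfa at 0.1 µM without Rs631.

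**Figure D5:**
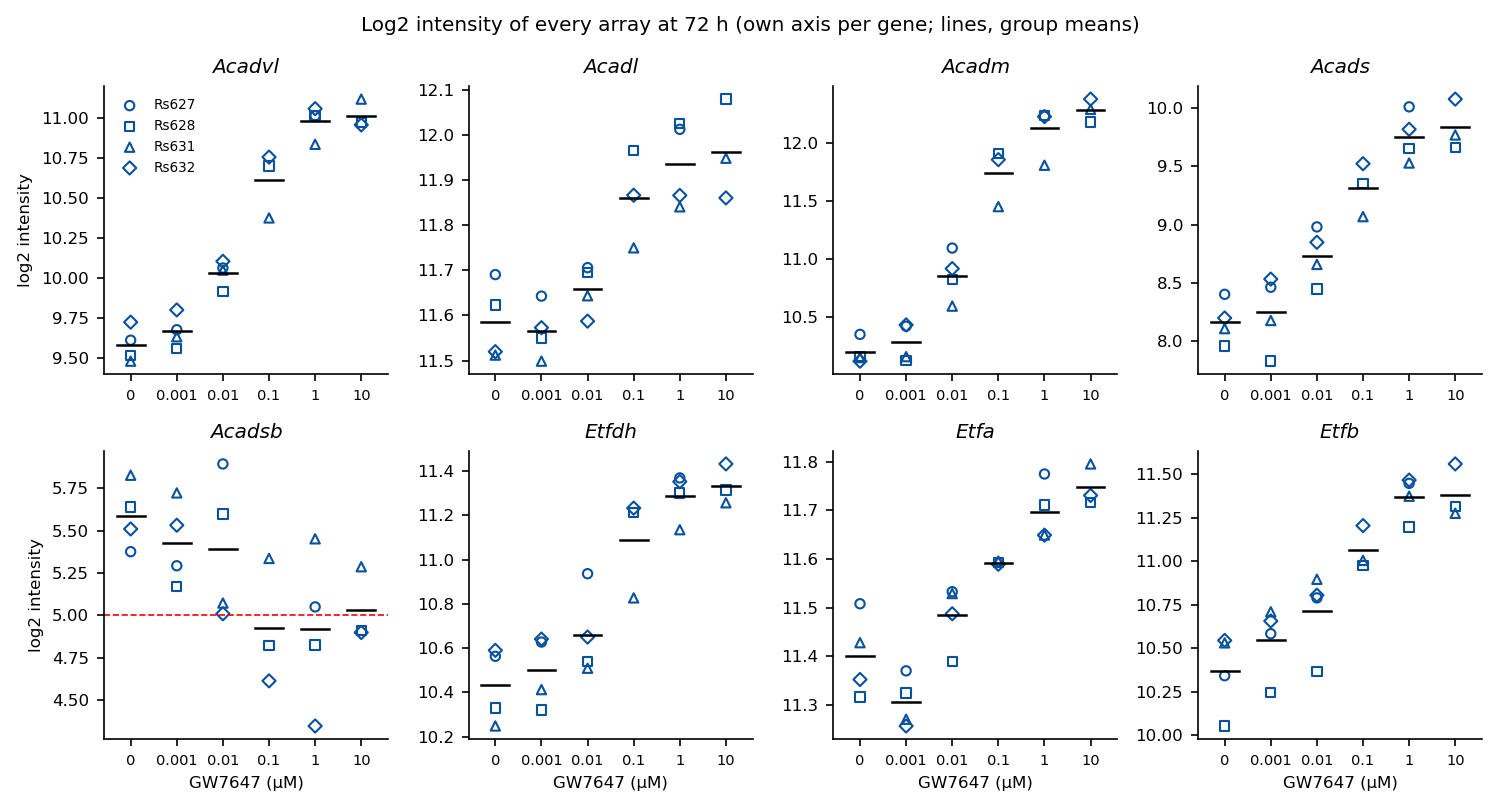
Log2 intensity of every array at 72 h (vertical axis, own range in each panel) against the concentration of GW7647 in µM (horizontal axis, not to scale), with symbols for the 4 rats and lines for group means. The dashed line in the panel of Acadsb is the floor of 5, and the other 7 panels climb between 0.01 and 1 µM and level off from 1 to 10 µM.

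The steps between neighbouring concentrations were tested directly. From 0.001 to 0.01 µM, averaged over times, Acadvl and Acadm rose (0.633% of all genes; 5 of 8 with the block, beside 1.48%), and without Rs632 Acadvl alone. From 0.01 to 0.1 µM 6 of 8 rose (3.22%), all but Acadsb and Etfa, and Etfa passed with the block (adjusted p = 0.0491). Without Rs628 or Rs632 3 did (Acadvl, Acadm and Etfb), and without Rs627 Acadl was lost. From 0.1 to 1 µM Acadvl rose further by 0.24 ± 0.04 (adjusted p = 6.00e-04) and Acadm by 0.30 ± 0.08 (adjusted p = 0.0237), 2 of 8 beside 0.848%. With the block 4 of 8 did (2.50%), without Rs627 or Rs632 Acadvl alone, and without Rs628 Etfb in place of Acadm. From 1 to 10 µM 0 of 8 rose (0 at an unadjusted p under 0.05) and 0.00% of all genes did, and the 7 genes other than Acadsb differed by at most 0.02.

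At 72 h alone, 0 of 8 passed from 0.001 to 0.01 µM (4 at an unadjusted p under 0.05; 0.102% of all genes), and 3 with the block (0.464%). From 0.01 to 0.1 µM Acadvl and Acadm rose (0.792%), and 6 of 8 did with the block (3.29%). Without Rs632 Acadvl alone passed, and without Rs627 or Rs631 3 genes did. From 0.1 to 1 µM Acadvl rose by 0.37 ± 0.10 (adjusted p = 0.0296; 0.905% of all genes), a call lost whichever of the 4 rats was left out. With the block Acads and Etfb passed too (3.03%). From 1 to 10 µM 0 of 8 passed (0 at an unadjusted p under 0.05; 0.00% of all genes).

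As a share of the change at 1 µM in the same rat at 72 h, 0.01 µM gave 32.3% ± 6.86 in Acadvl, 34.0% ± 5.86 in Acadm, 35.9% ± 4.99 in Acads and 34.8% ± 8.29 in Etfb (SD, n = 4 rats). At 0.1 µM these shares were 74.1% ± 7.07, 81.7% ± 2.97, 77.2% ± 8.32 and 69.5% ± 12.4 (3 rats). At 0.01 µM these 4 shares lay within 1 SD of each other. Acadl, Etfa and Etfdh had SDs of 14.5, 18.7 and 16.0 percentage points at 0.01 µM, around shares of 20.6%, 29.7% and 26.3%.

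Without agent, from 2 to 72 h, Etfa fell by 0.25 ± 0.06 (adjusted p = 0.0107), 1 of 8 genes beside 3.18% of all genes that fell. With the block Acadvl passed too (-0.30, adjusted p = 0.00871), beside 12.5%, and 0 of 8 passed whichever rat was left out. The mean of Acadl was highest at 12 h at each of the 6 concentrations: its 17 arrays of that time lay between 11.82 and 12.27 with a median of 12.06, against medians of 11.70 to 11.80 at the other times. At 0 µM it read 11.99, 11.94 and 11.82 at 12 h (Rs627, Rs628 and Rs631) and 11.54, 11.45 and 11.58 at 24 h (Rs627, Rs631 and Rs632), with no overlap. That step of -0.39 ± 0.07 passed (adjusted p = 8.23e-04), 1 of 8 genes beside 0.520% of all genes, and was lost without Rs627. The step before it, 0.20 from 6 to 12 h, passed with the block alone (adjusted p = 0.00722; 0.226% of all genes rose). Without the block its adjusted p was 0.169.

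Over the 30 group means, the correlation between members was highest for Acadvl with Etfdh (Pearson r = 0.988), Acadm with Etfb (0.966) and Acadm with Acads (0.963). The flavoprotein subunits correlated at 0.722 with each other. That is within the range of Etfa with the other risen genes, from 0.588 (Acads) to 0.830 (Acadl). Acadsb was negative with every other member, from -0.678 (Etfdh) to -0.562 (Etfa). These are descriptions, since group means share rats and cultures and all follow the same series of exposures. Beyond the 8 genes, the 5 whose profile was most like the mean of the members were Dhrs4 (0.986), Hadhb (0.984), Slc25a20 (0.984), Apmap (0.982) and Ephx2 (0.982), of which Hadhb encodes a subunit of the trifunctional protein for later steps of β-oxidation and Slc25a20 the carnitine-acylcarnitine carrier. Acadm was closest to Ephx2 (0.996), Acadvl to the thiolase gene Acat1 (0.991), Acads to Aqp7 (0.984) and Etfb to Apmap (0.981). Acadl and Etfa had looser partners, Suclg1 (0.919) and the ATP synthase gene Atp5mc3 (0.916), and Acadsb had Junb (0.772).

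Other dehydrogenases also feed the electron transfer flavoprotein. Of 9 listed, 7 could be tested, and 0 of 7 rose at 2, 6 and 12 h at 1 µM (0, 1 and 1 at an unadjusted p under 0.05). At 24 and 72 h 3 of 7 rose, beside 7.06% and 11.3% of all genes. At 24 h these were Acad10 (0.70), Gcdh (0.57) and Dmgdh (0.57). At 72 h they were Acad10 by 1.44 ± 0.17 (adjusted p = 8.61e-11), Gcdh, for lysine and tryptophan breakdown, by 0.83 ± 0.12 (adjusted p = 1.68e-07) and Acad9, needed to assemble respiratory complex I, by 0.53 ± 0.12 (adjusted p = 1.81e-04). Ivd and Acad8, for the leucine and valine pathways beside which Acadsb stands for isoleucine, changed by -0.03 and -0.13 and did not pass (adjusted p = 0.928 and 0.696). Dmgdh and Sardh of choline breakdown changed by 0.25 and -0.28 (adjusted p = 0.174 and 0.162). The median of the 7 was 0.25, against -0.06 for all genes.

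Acyl-CoA dehydrogenases and the flavoprotein carry FAD. Of 5 listed genes of riboflavin uptake and FAD synthesis, 2 were tested, and 0 of 2 rose at 1 µM at any time (0 at an unadjusted p under 0.05). At 72 h Flad1 changed by 0.33 ± 0.17 and Slc52a2 by 0.37 ± 0.23, and at 10 µM Flad1 rose by 0.54 ± 0.19 (adjusted p = 0.0236). The peroxisomal counterpart of the acyl-CoA dehydrogenases are the acyl-CoA oxidases, of which Acox2 was tested and did not pass at 72 h (0.52 ± 0.32, adjusted p = 0.238). Of 12 listed genes of the other steps of mitochondrial β-oxidation, 10 rose at 6 h at 1 µM and 12 at 72 h, beside 1.73% and 11.3% of all genes. At 6 h these included Cpt1a, the entry enzyme, at 1.74 ± 0.24, Cpt2 at 1.16 ± 0.15 and Acat1 at 1.05 ± 0.11. The median of the 12 was 0.73 at 6 h and 1.55 at 72 h. Whether they differ from the 8 genes in timing was not tested.

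The cultures and arrays set these limits. Hepatocyte markers were strong, with Alb between 13.61 and 13.81, while 5 of 5 endothelial, 4 of 7 macrophage, 3 of 8 stellate cell and 2 of 6 bile duct markers stayed at or under the floor in all arrays, and the ranges of the summed levels overlapped between 0 and 1 µM for each list. Epcam, a bile duct marker, lay between 9.32 and 11.29, and the macrophage markers Cd14 and Lyz2 reached 10.19 and 9.70. Their part in the results was not tested. The overall signal (75th percentile) ran from 6.42 to 7.27, and 5 arrays lay under 6.6, among them 2 of the 4 at 1 µM and 24 h. The changes of the 7 risen genes at 24 h without low-signal arrays were 0.23 to 1.97, and all 7 still passed. The 3′ minus 5′ signal of β-actin, a sign of RNA quality, was 1.97 ± 0.15 at 1 µM and 1.66 ± 0.18 at 0 µM at 72 h (SD, n = 4), and its part in the results was not tested.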

How the data were processed

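RNA was amplified from its 3′ end, labelled with biotin and read on Affymetrix rat arrays, as the labels' protocols describe. Deposited were log2 intensities per array and probe set. The submitters' processing notes name GCRMA and Partek without role or version. Of 31139 probe sets, 19069 (61.2%) had 1 gene symbol in the platform annotation, 572 several and 11498 none, and 18989 gene IDs matched RefSeq. The probe set with the highest mean stood for a gene. Values were used as deposited. Arrays have no counts, and their number limits the precision.

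limma 3.58.1 (R 4.3.3) fitted 30 group means to 100 arrays (70 residual degrees of freedom). A permutation test in Python 3.11.15 (numpy 2.4.6) compared members. Both were run on simulated data with independent noise and no difference between rats. Those runs cannot show how the tests behave on arrays that share a rat. All 8 members are named; of the pathway lists, members past the filter could be named; the likeness rule took the 5 genes closest to the mean of the members and the 3 closest to each. The members and lists were chosen with earlier results of these data known.

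The labels give each array a biological replicate, taken as the animal. Deviations from group means correlated at 0.62 (median) within rats, with a lowest rat at 0.519, and at -0.23 between rats. The model without the rat is primary, and its paired form, the rat as a block, is printed where it changed a call or a count. Other alternatives were filters, scalings, an intensity trend, all probe sets of a gene, and leaving out rats, low-signal arrays, repeated plate positions, labels ending in 2 or the 12 h untreated arrays of Rs627 and Rs628. For fits without a rat the share of all genes called is not printed. A lost call there therefore cannot be told from a general loss of calls with fewer arrays. Plates, dates and batches are not given in the sources used here, so no values within a plate could be computed.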

Additional observations from a re-analysis of the deposited data

Results flagged for a closer look

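In 96 groups of 4 arrays (a gene at a time and concentration), the highest or lowest array was compared with its nearest neighbour. In 2 groups an array lay far from the others. Chance flags about 1 in 20, so 2 of 96 is below the rate of chance. At 2 h and 10 µM, Acadm read 10.84 in Rs627, and the next array 10.35. At 72 h and 1 µM it read 11.81 in Rs631, and the next array 12.23.

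For 7 genes the change at 1 µM differed between 72 and 2 h by the test of the difference itself. The difference was 1.77 for Acadm, 1.59 for Acads, 1.16 for Acadvl, 0.86 for Etfb, 0.67 for Etfdh, 0.38 for Etfa and 0.31 for Acadl.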

How the results depend on the processing

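With the rat as a replicate block, 37 of 384 tests of a gene in a comparison gained a call and 0 lost one. At 1 µM and 6 h the count rose from 2 to 4, while the share of all genes went from 1.73% to 2.95%. At 0.01 µM averaged over times it rose from 2 to 5, and the share of all genes from 0.656% to 1.50%. The block thus raised calls among all genes as well in both comparisons. Leaving out 1 rat gave 1 to 4 genes at 0.01 µM averaged over times. It gave 4 to 7 of 7 in the growth from 2 to 72 h, and 0 of 1 in the fall of Etfa without agent. That fall also gave 0 with quantile normalization or median centring, and 2 genes with the block, without a filter, without low-signal arrays or without repeated plate positions. The causes were not tested. The other counts of genes that rose at 1 µM stayed within 1.5 times, and the 1 gene that fell, Acadsb, lost its call in several settings. Of 833 alternative values of single genes, 796 kept direction and side of the threshold, 26 lost a call and 4 gained one. The other 7 turned sign, all without a call: Acads at 2 h (-0.01) with the block (0.10) or without Rs627 (0.072) or Rs632 (0.0067), against -0.093 to 0.072 over the 4 rats left out, Acadsb at 2 h (0.04) with quantile normalization (-0.023), and Acadsb at 12 h (-0.14) without Rs627 (0.11), Rs631 (0.025) or repeated plate positions (0.010), against -0.55 to 0.11 over the rats. The call of Acadsb at 72 h was also lost without a filter, with quantile normalization, with median centring and without repeated plate positions (adjusted p = 0.0644, 0.141, 0.0524 and 0.0547). With the arrays of the compared time alone, Acadl and Etfb lost their calls at 12 h and Etfa at 24 h (adjusted p = 0.0888, 0.0855 and 0.0559), and Etfb also without the 12 h untreated arrays of Rs627 and Rs628 (adjusted p = 0.237). Acadsb, near background, is the gene that signal limits most.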
